A study of Homo sapiens with 6 samples.

Results

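Endothelial cells carry proteins that start, restrain and dissolve blood clots on their surface, and 9 genes of this kind were followed in EA.hy926 cells kept at low oxygen. They were chosen by name, as genes of coagulation and fibrinolysis: PLAT, PLAU, PLAUR, ANXA2, THBD, PROCR, VWF, TFPI and F3. All 9 were among the 22153 genes of the deposited table and none was absent, and 8 of them passed the filter on low values, against 10237 genes that passed it in all. The cells were held at 1% oxygen for 8 h in a tri-gas incubator after reaching near confluence (hypoxia, 3 libraries), or were at 20% oxygen (normoxia, 3 libraries). EA.hy926 is an established human hybrid line, derived from a fusion of umbilical vein endothelium with A549 lung carcinoma cells, so all libraries come from 1 line and none from primary endothelium. The series asks which transcripts change after 8 h of hypoxia, by sequencing of polyadenylated RNA.

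Clotting begins when tissue factor (F3) meets factor VII of the blood, and tissue factor pathway inhibitor (TFPI) shuts that step down. Thrombin formed later is turned from a clotting enzyme into an anticoagulant one by thrombomodulin (THBD), which activates protein C held on the endothelial protein C receptor (PROCR). Von Willebrand factor (VWF), stored in Weibel-Palade bodies, tethers platelets, while tissue-type and urokinase-type plasminogen activators (PLAT, PLAU), the urokinase receptor (PLAUR) and annexin A2 (ANXA2) act in making plasmin, which dissolves fibrin.

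The libraries held 17226736 to 18652704 reads assigned to genes. Known hypoxia-induced genes stood apart by group: LDHA had 44790, 39905 and 46995 size-factor-scaled reads in hypoxia against 11768, 14130 and 14778 in normoxia (adjusted p = 0.0236 by limma). BNIP3 had 6951, 5879 and 7254 in hypoxia against 520, 573 and 694 in normoxia (adjusted p = 0.00207 by limma), and ANGPTL4 and PGK1 also passed the test. Of 11 endothelial markers all were listed and 9 were tested, with EMCN and CLDN5 at or near 0 in every library. Their summed level was 67001, 133172 and 91988 scaled reads in hypoxia replicates 1, 2 and 3, and 106287, 97733 and 62733 in normoxia replicates 1, 2 and 3. Of 6 epithelial markers, which the carcinoma parent could bring, 5 were listed, with summed levels of 42716, 26178 and 33683 in hypoxia and 31788, 30483 and 42719 in normoxia. Hypoxia replicate 1 and normoxia replicate 3 thus had the lowest endothelial sums and the highest epithelial ones, and fits without this pair were also made. The leukocyte markers (4 of 5 listed) summed to 35.3 to 90.3 in hypoxia and 18.8 to 103 in normoxia, the fibroblast and mural markers (4 of 6 listed) to 148 to 243 in hypoxia and 119 to 184 in normoxia, and the platelet markers (1 of 4 listed) to 13.3 to 32.1 in hypoxia and 0 to 20.8 in normoxia.

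The most abundant of the 9 genes per summed exon length were PROCR and ANXA2, and F3 was close to silent. On the FPKM scale, which divides by the summed length of all annotated exons, PROCR averaged 434 ± 91.5 in hypoxia and 315 ± 73.2 in normoxia (SD, n = 3 each, as for all means here). ANXA2 followed at 295 ± 88.2 in hypoxia and 251 ± 74.3 in normoxia. The summed length was 8824 bases for ANXA2, whose transcript ANXA2-203 has 1444, and 1696 for PROCR, so the order depends on the annotation. In scaled reads ANXA2 was the higher, at 46424 ± 13899 in hypoxia and 39616 ± 11710 in normoxia. PROCR had 13146 ± 2772 in hypoxia and 9552 ± 2217 in normoxia. A middle group came next. PLAU averaged 81.7 ± 12.7 in hypoxia and 65.6 ± 10.4 in normoxia, THBD 52.7 ± 17.9 in hypoxia and 78.5 ± 25.4 in normoxia, and PLAUR 38.7 ± 9.38 in hypoxia and 31.3 ± 9.14 in normoxia. Lower levels were seen for PLAT, VWF and TFPI. PLAT stood at 15.1 ± 3.99 in hypoxia and 9.64 ± 1.37 in normoxia, VWF at 12.1 ± 12.4 in hypoxia and 11.9 ± 8.51 in normoxia, and TFPI at 5.35 ± 1.13 in hypoxia and 5.93 ± 3.69 in normoxia. F3 stood at 0.0797 ± 0.0710 in hypoxia and 0.161 ± 0.162 in normoxia, below the filter of 1. Between neighbours in this order the ranges over the 6 libraries did not overlap in 3 places: ANXA2 lay above PLAU, PLAUR above PLAT and TFPI above F3. The ranges of THBD and PLAUR overlapped, but THBD was the higher in 6 of 6 libraries. For the other neighbours the ranges overlapped and the order differed between libraries: PROCR was above ANXA2 in 5 of 6, PLAU above THBD in 4, PLAT above VWF in 3 and VWF above TFPI in 4.

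**Figure D1:**
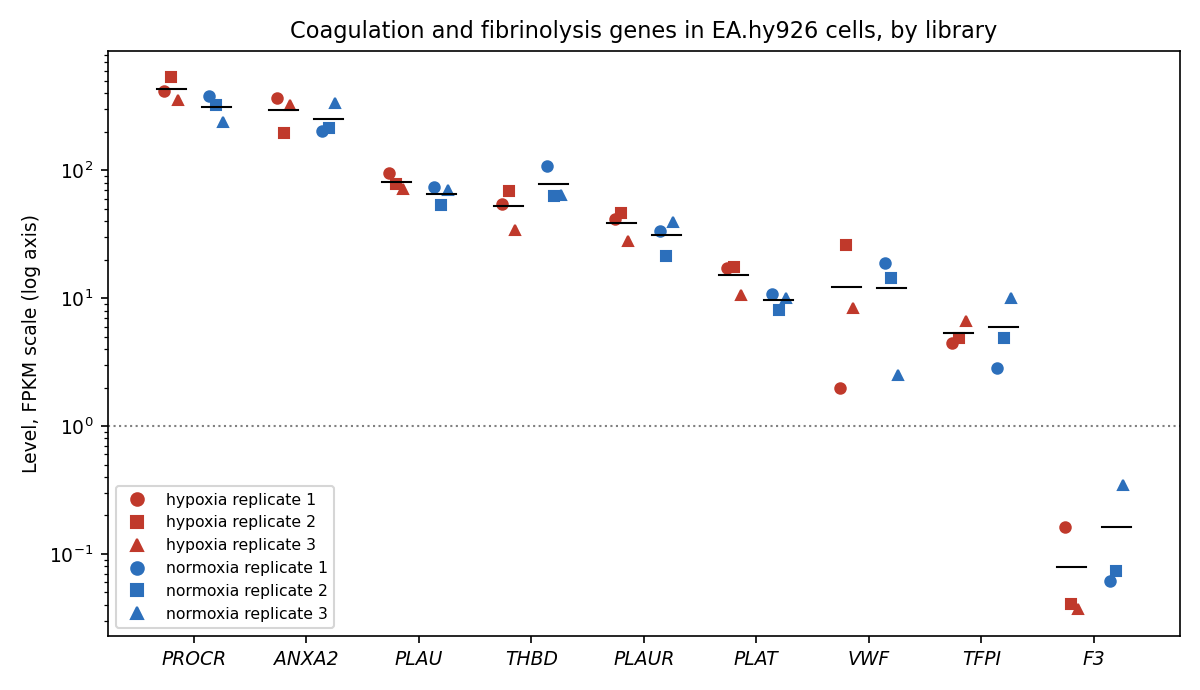
Level of each gene on the FPKM scale (log axis) in every library, ordered by the mean, with hypoxia in red left of normoxia in blue, marker shape for the replicate number, black lines for group means and a dotted line at the filter of 1. PROCR and ANXA2 stand at 196 or more in every library, F3 at 0.348 or less, and in VWF hypoxia replicate 1 and normoxia replicate 3 lie far below the other libraries.

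No member passed the test of hypoxia against normoxia. With limma across all genes 0 of 8 passed an adjusted p of 0.05, where 0.0977% of the 10237 genes did, and every member had an adjusted p of 1.00. At an unadjusted p under 0.05 limma gave 0 of 8 (2.69% of all genes), while edgeR and DESeq2 on the recovered reads gave 0 of 8 after adjustment and 1 of 8, PLAT, before it (2.42% and 2.97% of all genes). The hypoxia and normoxia libraries overlapped in all 8, where 7.48% of all genes tested had groups that did not. Of the 8, 6 had a positive log2 difference and 2 a negative one, with a median of 0.27, beside a median of 0.00350 and 50.6% positive over all genes tested. A p that misses the threshold does not show equal levels, so a 95% interval is given with each gene.

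**Figure D2:**
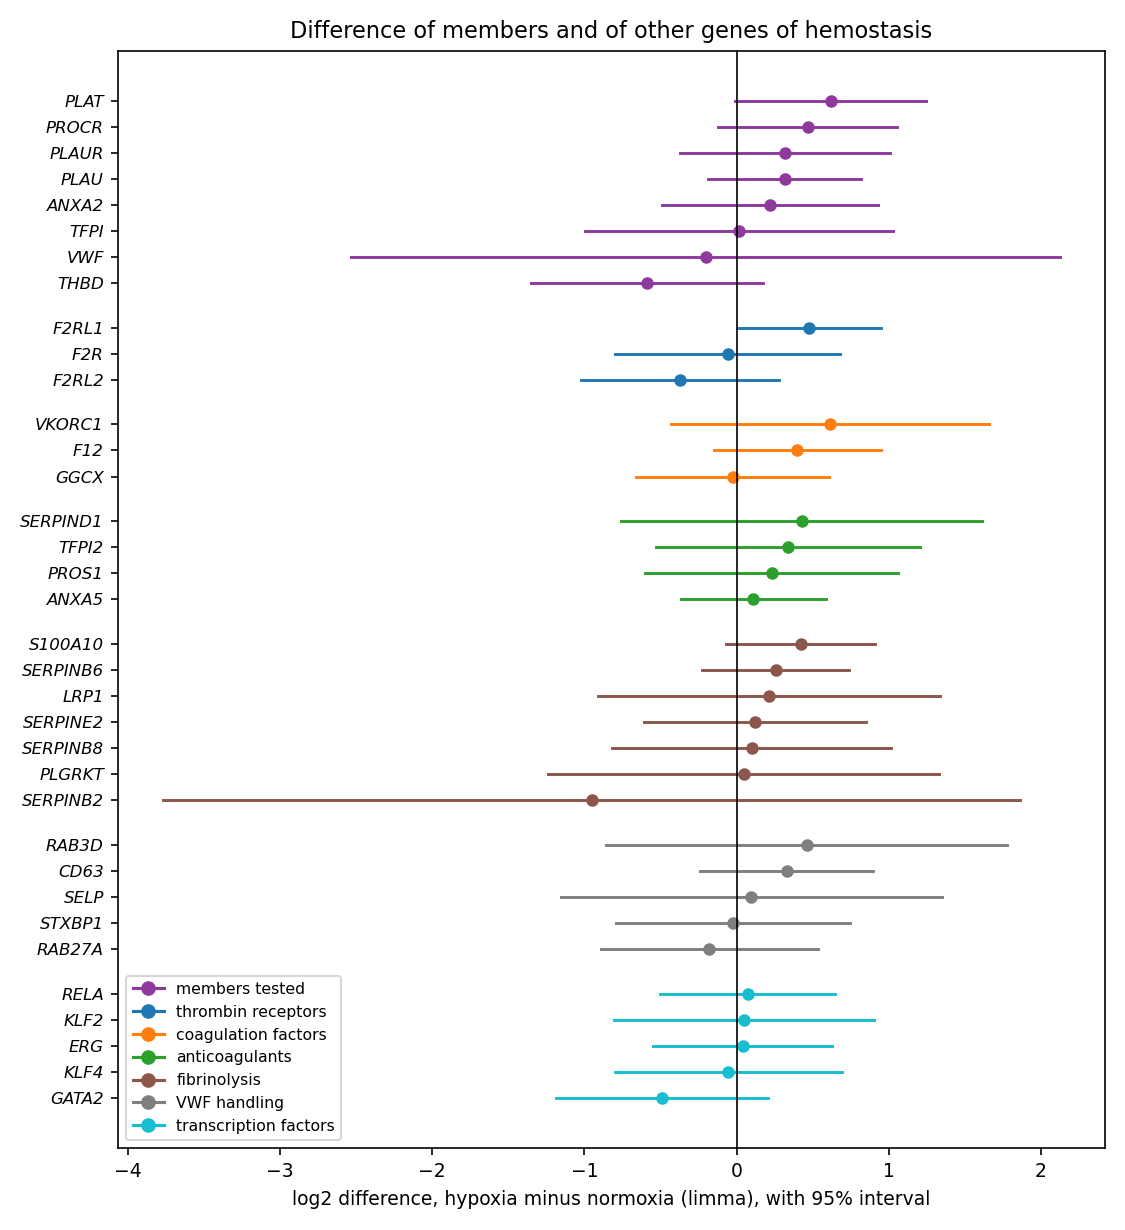
log2 difference (hypoxia minus normoxia) with its 95% interval from limma for the 8 tested members at the top and, below, the 27 other tested genes of hemostasis by group. Every member's interval includes 0, from the narrow interval of PLAU, -0.19 to 0.82, to that of VWF, -2.53 to 2.12.

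Because hypoxia-inducible factors bind a short core sequence, the promoter windows of RefSeq (GRCh38.p14, 250 bases before to 50 bases after each start) were searched for ACGTG and GCGTG, its common forms, and for the AP-1 element TGANTCA, which Fos and Jun proteins bind. Both strands were read, and TGANTCA is its own reverse complement. Of the 6 genes whose windows were searched, PLAUR is shown as the one with ACGTG, from chr19:43670120-43670419 on the minus strand. F3 is shown as the one with the AP-1 element at 2 places, from chr1:94541710-94542009 on the minus strand. Capitals mark ACGTG and the AP-1 element.
PLAUR: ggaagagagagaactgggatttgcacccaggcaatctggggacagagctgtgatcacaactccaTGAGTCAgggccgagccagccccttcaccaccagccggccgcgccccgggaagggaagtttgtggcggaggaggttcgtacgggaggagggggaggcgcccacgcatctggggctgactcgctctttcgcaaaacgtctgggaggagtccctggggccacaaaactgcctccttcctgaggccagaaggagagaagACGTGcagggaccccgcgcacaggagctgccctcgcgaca
F3: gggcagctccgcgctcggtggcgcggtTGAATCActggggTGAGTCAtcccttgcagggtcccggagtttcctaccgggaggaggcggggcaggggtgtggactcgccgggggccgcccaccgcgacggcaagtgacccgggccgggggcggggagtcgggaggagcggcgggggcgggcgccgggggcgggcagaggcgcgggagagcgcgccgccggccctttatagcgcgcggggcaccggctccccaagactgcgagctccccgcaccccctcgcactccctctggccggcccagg
PLAUR holds the AP-1 element at -186 and ACGTG at 11, counted from the start site, and F3 holds the AP-1 element at -223 and -210. Windows of 6 of the 9 genes were searched, 7 in all because PLAU has 2. Those of PLAT, THBD and VWF were not searched, so the counts do not cover these genes. TGANTCA was in 3 of the 7 windows (F3, PLAUR and ANXA2), against 7.71% of all 35116 windows. ACGTG was in 1 of 7, against 21.4% of all, and GCGTG in 3 of 7 (PLAU, ANXA2 and PLAUR), against 36.5% of all. A match is a run of letters and says nothing of binding in these cells.

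Both plasminogen activators had positive log2 differences that did not pass the test. PLAT (ENSG00000104368, chr8:42175233-42207724 in GENCODE 29 on GRCh38, minus strand), the activator that endothelium releases into blood, had 2041, 2082 and 1246 scaled reads in hypoxia and 1275, 960 and 1185 in normoxia. Hypoxia replicates 1 and 2 lay above all normoxia libraries, and hypoxia replicate 3 lay within them. The mean was 1790 ± 471 in hypoxia and 1140 ± 162 in normoxia, 1.57-fold, and the log2 difference was 0.62 (SE 0.27, 95% interval -0.01 to 1.25, unadjusted p = 0.0533, adjusted p = 1.00 by limma). The interval runs from a ratio of 0.992 to 2.37. PLAT gave unadjusted p = 0.0372 by edgeR and 0.0358 by DESeq2, and it is the member with the lowest unadjusted p by each of these tools.

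PLAU (ENSG00000122861, chr10:73909177-73917497, plus strand), the urokinase-type activator that works mostly at cell surfaces, had 5049, 4116 and 3748 scaled reads in hypoxia and 3868, 2836 and 3673 in normoxia. Only hypoxia replicate 3 fell inside the normoxia range. The log2 difference was 0.32 (SE 0.22, 95% interval -0.19 to 0.82, adjusted p = 1.00 by limma), and PLAU had the smallest spread between libraries of the 8, a within-group SD of 0.23 on the log2 scale, with 79.7% of tested genes above it. The difference of PLAU was 0.20 without hypoxia replicate 1 and 0.18 without normoxia replicate 2. The exons of PLAU share 916 bp with C10orf55 on the opposite strand, 31.1% of their length, but C10orf55 had 8 to 18 reads per library, at most 0.493% of PLAU's. PLAUR (ENSG00000011422, chr19:43646095-43670547, minus strand), the receptor that focuses urokinase on the cell surface, had 3332, 3675 and 2244 in hypoxia and 2655, 1701 and 3129 in normoxia, with interleaved groups. Its log2 difference was 0.32 (SE 0.30, 95% interval -0.37 to 1.01, adjusted p = 1.00 by limma).

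ANXA2 (ENSG00000182718, chr15:60347134-60402883, minus strand), a phospholipid-binding protein that with S100A10 forms a surface docking site for plasminogen and PLAT, had 57521, 30833 and 50917 scaled reads in hypoxia and 32043, 33702 and 53103 in normoxia. Each group held low and high libraries, and the log2 difference was 0.22 (SE 0.31, 95% interval -0.49 to 0.93, adjusted p = 1.00 by limma). A processed copy, ANXA2P2, lies at chr9:33624274-33625293 and bears on how far ANXA2 reads can be assigned. Over the 1020 bases of ANXA2P2, which align without a gap to ANXA2 from its start codon on, 1004 bases were the same, 98.4%, with a longest identical run of 221 bases. The 100 bases with most differences, 5, are printed with the differing bases in capitals, numbered from the first base of each GENCODE 29 transcript.
ANXA2, transcript bases 257 to 356: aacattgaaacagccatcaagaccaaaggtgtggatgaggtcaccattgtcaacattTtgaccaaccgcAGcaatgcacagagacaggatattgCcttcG
ANXA2P2, transcript bases 121 to 220: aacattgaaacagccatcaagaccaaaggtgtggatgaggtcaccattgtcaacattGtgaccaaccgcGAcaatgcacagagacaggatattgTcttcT
ANXA2P2 held 6.86%, 6.48% and 6.16% as many reads as ANXA2 in hypoxia and 6.14%, 6.13% and 7.03% in normoxia, and its log2 difference was 0.23, beside 0.22 for ANXA2. Reads that match both cannot be told apart. S100A10, the partner subunit, had 6986, 8943 and 6176 in hypoxia and 5847, 4790 and 5747 in normoxia. All its hypoxia libraries lay above all normoxia libraries, and the log2 difference was 0.42 (SE 0.21, 95% interval -0.07 to 0.91, adjusted p = 1.00 by limma).

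In the protein C system THBD had a negative and PROCR a positive log2 difference, neither past the test. The ratio of THBD to PROCR, among 5 ratios compared, did not overlap between the groups. It was not past the threshold either (exact permutation p = 0.1, adjusted p = 0.5). THBD (ENSG00000178726, chr20:23045633-23049741, minus strand), the thrombin-binding cofactor, had 4010, 5103 and 2489 scaled reads in hypoxia and 7911, 4637 and 4737 in normoxia. Hypoxia replicate 2 lay within the normoxia range, and the means were 3867 ± 1313 in hypoxia and 5762 ± 1862 in normoxia, 0.671-fold. The log2 difference of THBD was -0.59 (SE 0.33, 95% interval -1.35 to 0.17, adjusted p = 1.00 by limma), and it ranged from -0.82 to -0.30 when each library was left out in turn, with -0.30 reached without hypoxia replicate 3 and -0.34 without normoxia replicate 1. PROCR (ENSG00000101000, chr20:35172073-35216240, plus strand), the receptor that presents protein C to the thrombin and thrombomodulin complex, had 12548, 16168 and 10721 in hypoxia and 11579, 9893 and 7185 in normoxia. Hypoxia replicate 3 lay within the normoxia range, and the log2 difference of PROCR was 0.47 (SE 0.25, 95% interval -0.12 to 1.05, adjusted p = 1.00 by limma), or 0.30 without hypoxia replicate 1 and normoxia replicate 3. It was 0.28 without normoxia replicate 3 and 0.31 without hypoxia replicate 2.

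Within a library, a ratio of 2 genes does not depend on the size factor, and 5 such ratios were compared. THBD stood at 0.320, 0.316 and 0.232 of PROCR in hypoxia and at 0.683, 0.469 and 0.659 of PROCR in normoxia. Every hypoxia library was below every normoxia library, by a mean log2 difference of -1.06, a ratio of 0.481. The log2 ratio averaged -1.81 ± 0.26 in hypoxia and -0.75 ± 0.30 in normoxia, and the two-sided exact permutation test gave p = 0.1, the smallest that 3 against 3 allows, or 0.5 after Benjamini-Hochberg adjustment over the 5 ratios, so the separation is reported as not past the threshold. The difference was -1.23 to -0.91 when each library was left out in turn, -1.06 without hypoxia replicate 1 and normoxia replicate 3, and -1.03 after the GC trend of each library was removed.

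The other ratios overlapped between groups. PLAT stood at 0.404, 0.506 and 0.333 of PLAU in hypoxia and at 0.330, 0.339 and 0.323 in normoxia (log2 difference 0.31, exact permutation p = 0.2, adjusted p = 0.5), and the difference was 0.15 without hypoxia replicate 2. PLAU stood at 1.51, 1.12 and 1.67 times PLAUR in hypoxia and at 1.46, 1.67 and 1.17 times in normoxia (log2 difference -0.0030, exact permutation p = 1, adjusted p = 1). ANXA2 stood at 8.23, 3.45 and 8.24 times S100A10 in hypoxia and at 5.48, 7.03 and 9.24 times in normoxia (log2 difference -0.20, exact permutation p = 0.8, adjusted p = 1). Hypoxia replicate 2 is the low library of this last ratio, and without it the log2 difference was 0.22. F3 to TFPI gave a log2 difference of -0.75 (exact permutation p = 0.4, adjusted p = 0.667), but it rests on 2 to 19 F3 reads per library. It was -1.41 without hypoxia replicate 1, -0.29 without hypoxia replicate 3, -1.19 without hypoxia replicate 1 and normoxia replicate 3 together, and -0.33 with 10 added to each value in place of 1.

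**Figure D3:**
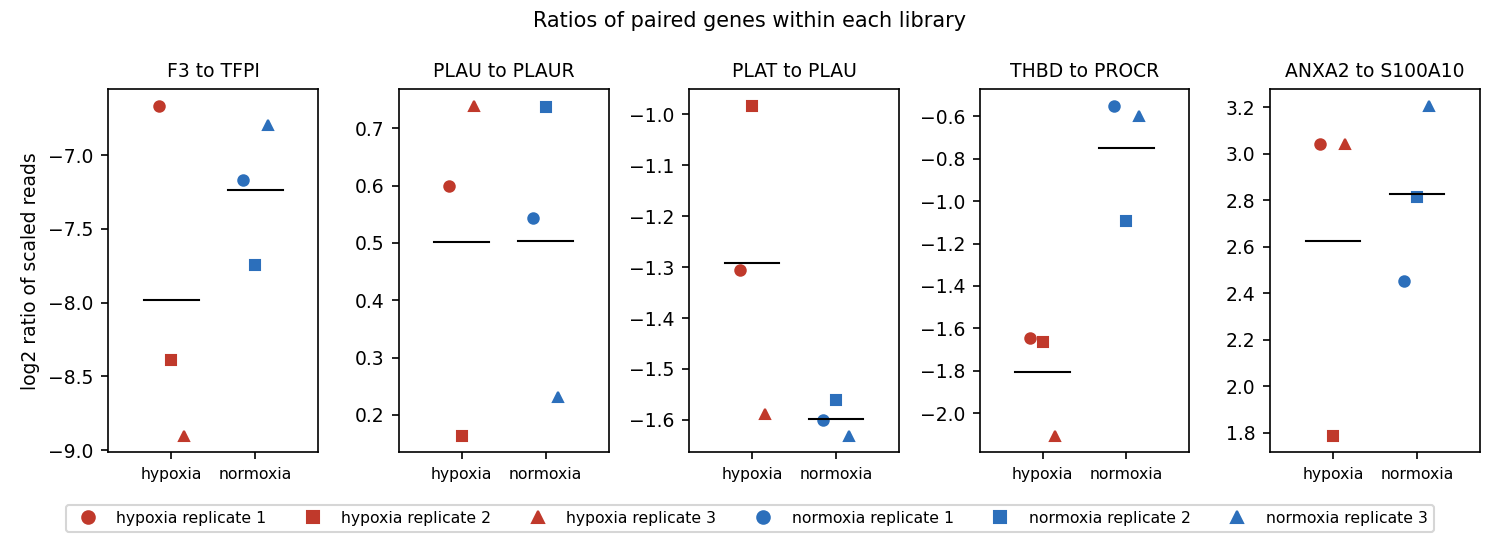
log2 ratio of size-factor-scaled reads of 5 gene pairs in every library, each on its own axis, with hypoxia in red left of normoxia in blue, marker shape for the replicate number and black lines for group means. In the THBD to PROCR panel the hypoxia libraries lie at -2.11 to -1.65 and the normoxia libraries at -1.09 to -0.55, while the groups overlap in the other panels.

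VWF (ENSG00000110799, chr12:5948874-6124770, minus strand) varied far more between libraries of 1 group than the group means differed. It had 371, 4819 and 1568 scaled reads in hypoxia and 3522, 2669 and 462 in normoxia, a 12.98-fold range within hypoxia and a 7.63-fold range within normoxia. The lowest libraries were hypoxia replicate 1 and normoxia replicate 3, the same that had the lowest sums of endothelial markers. In bulk RNA fewer cells of a type and less transcript per cell cannot be told apart, and the part of this difference in marker levels in the VWF values was not tested. The within-group SD of VWF was 1.70 on the log2 scale, and 0.713% of the genes tested had a larger one. The log2 difference was -0.20 (SE 1.01, 95% interval -2.53 to 2.12, adjusted p = 1.00 by limma), which spans ratios of 0.173 to 4.36. Leaving out hypoxia replicate 1 turned it to 0.74, normoxia replicate 1 to 0.34 and normoxia replicate 2 to 0.14, while it was -1.08 with hypoxia replicate 2 left out and -1.10 with normoxia replicate 3 left out. Without the low pair it was -0.16 with an SE of 0.49. The pseudogene VWFP1 had 0 to 7 reads per library.

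F3 (ENSG00000117525, chr1:94529225-94541800, minus strand), the initiator of clotting, had 8, 2 and 2 recovered reads in hypoxia and 3, 4 and 19 in normoxia, so 4 of 6 libraries lay at or near the 3 reads that a count of 0 allows. No difference was detectable at this depth, and F3 was not among the genes tested. Without the filter on low values its log2 difference was -0.44 by limma, with a 95% interval of -1.71 to 0.82 (adjusted p = 1.00). TFPI (ENSG00000003436, chr2:187464230-187565760, minus strand), which blocks the complex of tissue factor and factor VIIa, had 942, 1030 and 1388 scaled reads in hypoxia and 599, 1025 and 2097 in normoxia. The normoxia libraries enclosed all hypoxia libraries, with normoxia replicate 1 lowest and normoxia replicate 3 highest of the 6. The log2 difference of TFPI was 0.02 (SE 0.44, 95% interval -0.99 to 1.03, adjusted p = 1.00 by limma). Leaving out hypoxia replicate 3 turned it to -0.14, normoxia replicate 1 to -0.40 and normoxia replicate 2 to -0.03, while it was 0.48 with normoxia replicate 3 left out and 0.60 with hypoxia replicate 1 and normoxia replicate 3 left out together.

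The levels were also set beside base composition. For each library the deviation of log2 levels from the gene means was fitted against the GC content of the longest transcript, over all genes tested. The slope per 10 points of GC was -0.14, 0.25 and -0.12 in hypoxia replicates 1, 2 and 3 and 0.33, 0.08 and -0.40 in normoxia replicates 1, 2 and 3. Transcripts of VWF hold 58.5% GC and those of TFPI 41.5%, the highest and lowest of the 8. VWF was high and ANXA2, at 44.0% GC, was low in the 3 libraries with positive slopes, in both groups. With each library's GC trend removed the within-group SD was smaller for 5 of the 8 members and larger for 3. It was 0.39 for TFPI (0.66 before), 0.17 for PROCR (0.33 before), 0.30 for ANXA2 (0.44 before) and 0.38 for THBD (0.48 before), and that of VWF was also smaller but remained the largest of the 8. It was 0.33 for PLAU (0.23 before), 0.37 for PLAT (0.33 before) and 0.48 for PLAUR (0.42 before). With the trend removed 0 of 8 members passed the test and the log2 differences of all 8 kept their sign.

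**Figure D4:**
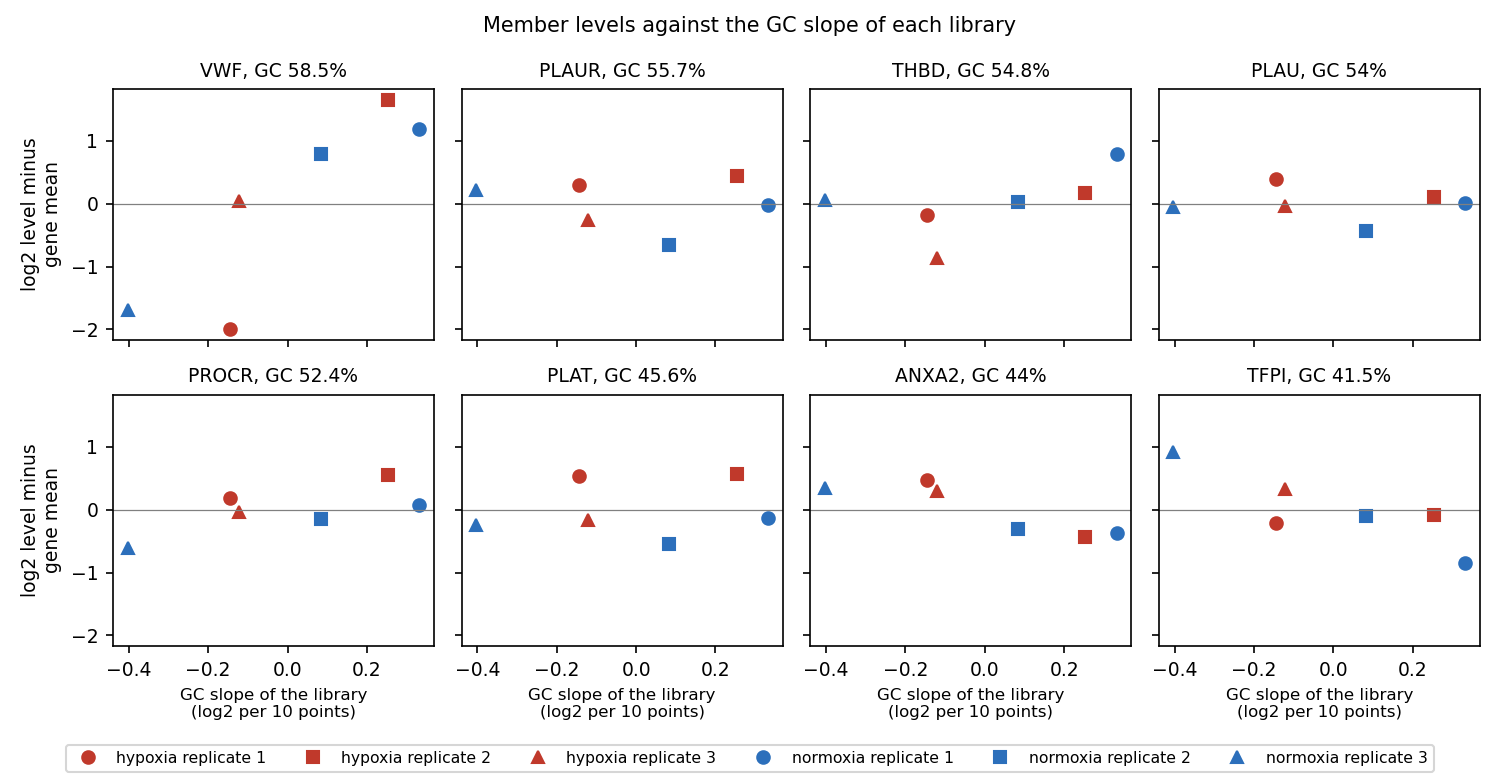
log2 level of each tested member minus its mean over the 6 libraries, against the GC slope of the library in log2 units per 10 points of GC, with members ordered by GC content from VWF to TFPI. VWF is above its mean in the 3 libraries with positive slopes, ANXA2 is below its mean in them, and hypoxia (red) and normoxia (blue) libraries lie at both ends.

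Among other genes of hemostasis 0 of 27 passed limma's adjusted threshold in either direction. The list held 55 genes besides the members, of which 44 were in the table and 27 were tested. After adjustment edgeR gave 0 of 27 and DESeq2 0 of the 26 for which it gave a p, SERPINB2 being without one. At an unadjusted p under 0.05 limma and DESeq2 gave 1, F2RL1, and edgeR gave 0. Of the 27, 19 were positive (70.4%), with a median log2 difference of 0.10, beside 50.6% positive and a median of 0.00350 over all genes tested. Groups without overlap were seen in 5 of the 27, all higher in hypoxia (S100A10, SERPINB6, F2RL1, F12 and CD63), where 4.77% of all genes tested were of this kind, and 0 of 27 were lower without overlap (2.72% of all genes).

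Of 4 genes of protease-activated receptors, the family through which thrombin signals, 3 were tested. F2RL1, the member that responds to trypsin and tryptase, had 911, 822 and 750 scaled reads in hypoxia and 588, 546 and 644 in normoxia (log2 difference 0.48, 95% interval 0.0027 to 0.95, unadjusted p = 0.0490, adjusted p = 1.00 by limma). All hypoxia libraries lay above the normoxia libraries. F2RL2 averaged 117 ± 27.8 in hypoxia and 151 ± 17.6 in normoxia. F2R, the main thrombin receptor of endothelium, averaged 1566 ± 704 in hypoxia and 1545 ± 215 in normoxia. Of 17 coagulation factor and vitamin K cycle genes 9 were in the table and 3 were tested. F12, the contact factor, averaged 200.4 ± 19.1 in hypoxia and 151 ± 15.3 in normoxia, and VKORC1, which recycles vitamin K, averaged 241 ± 34.0 in hypoxia and 176 ± 90.9 in normoxia, where normoxia replicate 3 had 70.5. The tested anticoagulant genes, 4 of 9, were all positive, where 50.6% of all genes tested were, and the groups overlapped in each. SERPIND1 (heparin cofactor II) stood at 80.8 ± 46.2 in hypoxia and 57.5 ± 31.4 in normoxia, and TFPI2 at 133 ± 17.5 in hypoxia and 111 ± 51.7 in normoxia.

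Of 11 further fibrinolysis genes 7 were tested and 6 were positive, where 50.6% of all genes tested were. SERPINB2, an inhibitor of urokinase, had 756, 37.3 and 104 scaled reads in hypoxia and 150, 109 and 1423 in normoxia. Its high libraries were hypoxia replicate 1 and normoxia replicate 3, the same pair in which VWF was lowest. PLG, which encodes the plasminogen that these activators cleave, was on this list but absent from the deposited table. Of 8 genes of VWF processing and Weibel-Palade bodies 5 were tested. CD63, a membrane protein of these bodies, averaged 20453 ± 526 in hypoxia and 16742 ± 4512 in normoxia, RAB3D averaged 649 ± 300 in hypoxia and 496 ± 272 in normoxia, and SELP, the adhesion receptor stored with VWF, had 481, 1375 and 926 in hypoxia and 1288, 1059 and 366 in normoxia. SELP was lowest in the libraries in which VWF was lowest. Among 5 tested transcription factor genes, KLF2, an activator of THBD in endothelium, averaged 9162 ± 4154 in hypoxia and 8593 ± 2865 in normoxia, GATA2 averaged 502 ± 110 in hypoxia and 722 ± 220 in normoxia, and RELA averaged 3951 ± 1061 in hypoxia and 3708 ± 590.3 in normoxia.

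Genes most alike in pattern were sought for the 3 members with the largest absolute differences, among 9221 other protein-coding genes tested, by Pearson correlation of log2 levels over the 6 libraries. PGAP2 and SLC35C2 were closest to THBD, with r of 0.997 and 0.995, yet their own log2 differences were -0.12 and -0.16, beside -0.59 for THBD. UBXN1 and DENND5A were closest to PROCR (r of 0.994 and 0.987, log2 differences of 0.18 and 0.43). MARCHF3 and ENSG00000285043 were closest to PLAT (r of 0.988 and 0.975, log2 differences of 0.72 and 0.54). These r are the highest among many genes over 6 shared libraries and are given as a description.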

How the data were processed

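Polyadenylated RNA was sequenced in 3 hypoxia and 3 normoxia libraries. The submitters' processing notes list CASAVA, HISAT2 (2.0.5) and featureCounts (1.5.0-p3), in no order, and mouse build mm9, which does not match the human Ensembl identifiers; for build, annotation and strand setting the sources used here give nothing further. The deposited signal, named as FPKM, is read counts per gene divided by 1 size factor per library (0.944 to 1.06): 100% of values were whole multiples of a step per library, within 0.05 of a step, and reads were recovered from it.

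Values were divided by GENCODE 29 exon length and the mean library total. Genes at 1 or more in at least 3 libraries were fitted as log2(FPKM + 0.1) with limma 3.58.1 under R 4.3.3 (term: group, trend and robust variances, two-sided, Benjamini-Hochberg over 10237 genes). The direction and size of the estimates were checked on simulated reads. That check set no limit on false calls, and its reads held no GC trend of the libraries. The log2(FPKM + 0.1) scale understates changes of low genes. Ratios used scaled reads plus 1. edgeR 4.0.16 and DESeq2 1.42.0 ran on recovered reads, beside other pseudocounts, filters, TMM, GC trend removal, a replicate block and each library left out. No label says that replicates were grown separately, so the p-values may reflect technical spread alone.

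Members and lists were chosen with earlier results of these data known. Named besides members are the genes of each list past the test or else its 2 largest differences, S100A10, KLF2, the ANXA2 copies (ANXA2P1 had 0 to 6 reads, ANXA2P3 is not used here) and the label checks. F2R, SELP, SERPINB6, C10orf55 and VWFP1 were added after their values were seen, and PLG is named as a listed gene without values. 1 further fibrinolysis gene is not reported here.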

Additional observations from a re-analysis of the deposited data

How the results depend on the processing

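No member and none of the 27 other genes passed the adjusted threshold in any of the 17 alternative fits that gave it an adjusted p; with a minimum of 5 that was 7 members (not TFPI) and 16 of the 27, and by DESeq2 26 of the 27 (not SERPINB2). The number of genes called, 10 in the reported fit, was 4 with no filter on low values, 23 with the GC trend removed, 19 with the replicate block, 32 with the block and the GC trend removed, 50 by DESeq2, 1 to 20 when 1 library was left out and 24 without hypoxia replicate 1 and normoxia replicate 3; the last fit and the one with block and GC trend were chosen after seeing the data, and the cause of these moves was not tested. The TFPI difference of 0.02 was -0.0051 with a pseudocount of 1, -0.14 by edgeR and -0.17 by DESeq2, -0.40 to 0.48 with 1 library left out and 0.60 without hypoxia replicate 1 and normoxia replicate 3. The VWF difference of -0.20 was 0.0097 by edgeR, 0.018 by DESeq2 and -1.10 to 0.74 with 1 library left out. With 1 library left out the PLAU to PLAUR log2 ratio difference was -0.14 to 0.17 (-0.19 without hypoxia replicate 1 and normoxia replicate 3), that of ANXA2 to S100A10 -0.41 to 0.22, and the median of the wider list with the members, 0.11 in the reported fit, 0.11 to 0.21 (0.18 without that pair). The other 6 members kept their sign in all fits that tested them; with 1 library left out PLAT was 0.49 to 0.86, PLAU 0.18 to 0.41, PLAUR 0.07 to 0.53, ANXA2 0.04 to 0.49, PROCR 0.28 to 0.62 and THBD -0.82 to -0.30, the PLAT to PLAU ratio difference 0.15 to 0.45 and that of F3 to TFPI -1.41 to -0.29. Deviations from the group means had r of -0.40, 0.24 and 0.22 between same-numbered libraries for replicates 1, 2 and 3. Hypoxia replicate 1 correlated best with normoxia replicate 3 (r of 0.50), hypoxia replicate 2 with normoxia replicate 1 (0.61) and hypoxia replicate 3 with normoxia replicate 3 (0.22). With 3 libraries a group these r cannot settle whether the numbers pair the libraries. With the replicate block 0 members were called, and the THBD to PROCR difference stayed at -1.06 (exact permutation p = 0.25 over 3 pairs, the smallest possible).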
